A study of Homo sapiens with 12 samples.

Results

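Vimentin (VIM), the type I collagen chain gene COL1A2, SPARC, fibronectin (FN1), N-cadherin (CDH2) and the transcription factors ZEB1, ZEB2, SNAI2 and TWIST1 are 9 genes commonly read as marks of a mesenchymal cell state. They were chosen by name and not by a rule on measured values, but earlier results of these data were known when the choice was made. Of the 9, 4 genes (VIM, COL1A2, FN1 and ZEB1) are among the 15090 genes listed for these samples, and SPARC, CDH2, ZEB2, SNAI2 and TWIST1 are not analysed here. All 4 listed members passed the filter on low values, which asked for at least 1 read per 1000000 (RPM) in at least 3 of the 12 libraries.

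The cells were MIA PaCa-2, an established line grown from a human pancreatic carcinoma and labelled wild type, and RNA was sequenced from 4 groups of 3 libraries. The groups were 40 mM L-glutamine with 0.5 µM gemcitabine, 40 mM L-glutamine without the drug, 2 mM L-glutamine with 0.5 µM gemcitabine, and 2 mM L-glutamine without the drug. Every group spent 48 h in RPMI 1640 medium made without glutamine, to which the stated amount was added. Gemcitabine is a deoxycytidine analogue that blocks DNA synthesis. The series names the 3 libraries of a group biological triplicates of this 1 cell line, but not whether they came from separate passages or days, so the p-values measure the spread between these cultures. In bulk RNA, less transcript per cell and fewer cells that carry it cannot be told apart.

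Epithelial-mesenchymal transition is the programme by which epithelial cells lose their junctions and keratin-based architecture and take up a motile, matrix-producing state. Transcription factors of the ZEB, SNAI and TWIST families drive it, largely by repressing epithelial genes, and ZEB1 does so by binding short E-box sequences and recruiting corepressors. Vimentin is the intermediate filament of mesenchymal cells, COL1A2 encodes a chain of fibrillar type I collagen, and fibronectin is a matrix glycoprotein that cells grip through integrins. Pancreatic cancer lines differ in where they stand between these states, and MIA PaCa-2 is usually placed toward the mesenchymal end.

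Promoter sequence was available in RefSeq windows (GRCh38.p14) for 3 of the 4 members, and COL1A2 is named only. The windows of VIM and FN1 are shown because these genes moved in opposite directions with the drug, and that of ZEB1 because its protein binds E-boxes. Capitals mark the E-box CAGGTG or CACCTG, the cAMP response element TGACGTCA and the GC box GGGCGG or CCGCCC, each searched on both strands. The VIM window lies at chr10:17227991-17228240 on the plus strand, the printed FN1 stretch at chr2:215436173-215436318 on the minus strand, and the ZEB1 window at chr10:31318167-31318416 on the plus strand. All are printed 5′ to 3′. Those of VIM and ZEB1 end just before the RefSeq start. The FN1 stretch is 146 bases long and ends 104 bases before that start, because the 104 bases nearest to it overlap an exon in GENCODE v29 and were left out, and ZEB1 has 7 annotated windows, of which the most upstream is printed.
VIM promoter: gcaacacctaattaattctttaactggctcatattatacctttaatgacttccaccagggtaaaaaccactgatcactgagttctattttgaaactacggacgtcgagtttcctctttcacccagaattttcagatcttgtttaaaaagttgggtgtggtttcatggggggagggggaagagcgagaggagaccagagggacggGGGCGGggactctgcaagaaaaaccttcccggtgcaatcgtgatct
FN1 promoter: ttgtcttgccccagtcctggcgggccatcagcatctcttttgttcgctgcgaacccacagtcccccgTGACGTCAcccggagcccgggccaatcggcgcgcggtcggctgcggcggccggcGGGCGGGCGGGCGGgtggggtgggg
ZEB1 promoter: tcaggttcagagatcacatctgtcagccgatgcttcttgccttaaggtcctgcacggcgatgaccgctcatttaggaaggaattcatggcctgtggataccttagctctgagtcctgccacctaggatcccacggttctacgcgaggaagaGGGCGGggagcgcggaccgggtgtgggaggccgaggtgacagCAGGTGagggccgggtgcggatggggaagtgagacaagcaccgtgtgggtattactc
The VIM window held 1 GC box and neither of the other motifs. The printed FN1 stretch held 1 cAMP response element and 3 overlapping GC boxes, and its whole window of 250 bases held 1 and 6. The ZEB1 window held 1 E-box and 1 GC box, and over the 7 ZEB1 windows 2 held an E-box and 5 a GC box. Among 35116 RefSeq windows of 250 bases, 17.5% held an E-box, 1.65% a cAMP response element and 42.6% a GC box. These matches are letters in a window, and binding was not measured.

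Each library held between 21723094 and 32811746 reads in the listed genes. The deposited values carry scaling factors between 0.979 and 1.03, with the 3 highest in the 40 mM libraries with drug. The first principal component held 40.1% of the variance and parted the 6 drug-treated from the 6 untreated libraries, and the second, with 18.8%, parted the 40 mM from the 2 mM libraries. No library stood apart from its group on either. Pancreatic epithelial markers were present in every library: KRT8, KRT18, KRT19 and SOX9 summed to between 3161.5 and 3239.8 RPM at 40 mM with drug, between 2632.6 and 2733 RPM at 40 mM alone, between 4388 and 4444 RPM at 2 mM with drug, and between 3300.2 and 3439 RPM at 2 mM alone. CDH1, EPCAM, KRT7, CDKN2A and the blood marker PTPRC are not analysed here. Of 10 fibroblast and stellate markers 3 were listed (COL1A1, COL3A1 and ACTA2), with a summed level of 15.2 to 18.5 RPM over the 12 libraries. Listed blood and endothelial markers summed to at most 1.17 and 0.660 RPM.

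VIM was among the most abundant transcripts of these cells, standing 12th to 15th from the top in each library and above 99.9% of tested genes. It measured 2997, 2944 and 2987 RPM at 40 mM glutamine with gemcitabine, 3333, 3409 and 3254 RPM at 40 mM alone, 3185, 3147.5 and 3268 RPM at 2 mM with the drug, and 3488, 3378 and 3446.5 RPM at 2 mM alone. The 3 libraries at 40 mM with drug lay below the other 9. The group means were 2976 ± 28.2, 3332 ± 77.3, 3200.1 ± 61.6 and 3437 ± 55.6 RPM in the same order of groups (SD, n = 3 each). The untreated groups overlapped, as did the 40 mM group and the 2 mM group with drug. At 67754 to 105958 reads per library, counting error was small against these differences.

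COL1A2 was also abundant, above 98.9% of tested genes, with 12531 to 24283 reads per library. It measured 681, 651.0 and 702 RPM at 40 mM with gemcitabine, 897, 868 and 890.2 RPM at 40 mM alone, 629.8, 582 and 605 RPM at 2 mM with gemcitabine, and 768, 746 and 758 RPM at 2 mM alone. Its means were 678 ± 25.6, 885 ± 15.4, 606 ± 23.8 and 757 ± 11.1 RPM in that order (SD, n = 3 each). From high to low the groups ran 40 mM, 2 mM, 40 mM with drug and 2 mM with drug, and no neighbours in that order overlapped.

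FN1 was rare in these cells, above only 7.72% of tested genes, and its values rest on 10 to 68 reads per library. It measured 2.72, 2.57 and 2.25 RPM at 40 mM with gemcitabine, 1.35, 1.51 and 1.83 RPM at 40 mM alone, 1.72, 1.53 and 1.36 RPM at 2 mM with gemcitabine, and 1.24, 0.448 and 0.926 RPM at 2 mM alone. The lowest value, in 2 mM replicate 2, came from 10 reads. The means were 2.51 ± 0.238, 1.57 ± 0.245, 1.54 ± 0.182 and 0.870 ± 0.397 RPM in that order (SD, n = 3 each). The 3 libraries at 40 mM with drug lay above the other 9, the 3 at 2 mM without drug lay below the other 9, and the middle groups overlapped each other.

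ZEB1 was moderately expressed, above 60.5% of tested genes, with 810 to 1276 reads per library. It measured 44.7, 44.4 and 40.8 RPM at 40 mM with gemcitabine, 44.0, 46.3 and 43.1 RPM at 40 mM alone, 36.9, 37.6 and 39.4 RPM at 2 mM with gemcitabine, and 47.2, 44.1 and 41.9 RPM at 2 mM alone. The 3 libraries at 2 mM with the drug lay below the other 9, and the other 3 groups overlapped. The means were 43.3 ± 2.15, 44.5 ± 1.62, 38.0 ± 1.26 and 44.4 ± 2.67 RPM (SD, n = 3 each).

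Per kilobase of annotated exon (GENCODE v29, which may differ from the annotation behind the reads), VIM led the 4 members with 577 RPM per kb at 40 mM with drug, 646 at 40 mM, 620.4 at 2 mM with drug and 666 at 2 mM. COL1A2 followed with 60.8, 79.3, 54.3 and 67.9 RPM per kb in that order, ZEB1 with 5.01, 5.14, 4.39 and 5.13, and FN1 with 0.145, 0.0904, 0.0888 and 0.0503. The order VIM, COL1A2, ZEB1, FN1 was the same in all 4 groups. Keratin 8, a filament of simple epithelia, stood at 247, 198, 337 and 244 RPM per kb in the same order of groups, so an epithelial and a mesenchymal filament gene were both abundant in these cultures.

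**Figure D1:**
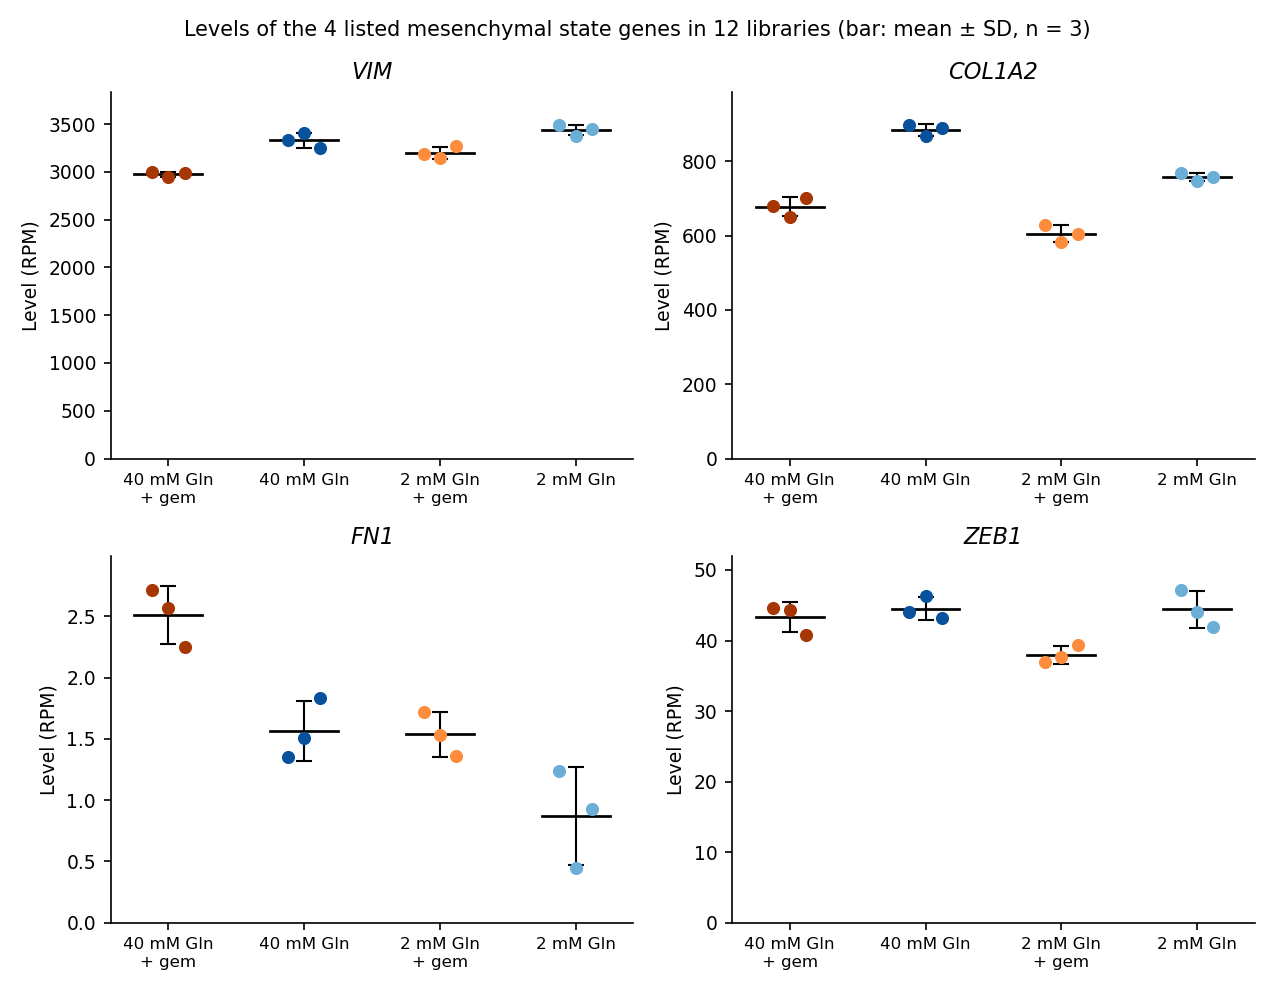
Level of each listed mesenchymal state gene in RPM (linear axes from 0), with 1 point per library and the mean ± SD of 3 libraries per group; gem, 0.5 µM gemcitabine; Gln, L-glutamine. COL1A2 is lower in both drug groups, at 678 and 606 RPM, than in the groups without drug, at 885 and 757 RPM, while FN1 is highest at 40 mM with drug, at 2.51 RPM, and lowest at 2 mM without drug, at 0.870 RPM.

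The response to gemcitabine was read at each glutamine level by comparing treated with untreated cultures. At 2 mM glutamine COL1A2, VIM and ZEB1 fell with the drug and FN1 rose, so that all 4 members passed the threshold (limma, Benjamini-Hochberg adjusted p under 0.05 over 12789 genes), where 34.6% of all tested genes did. By direction, 17.1% of tested genes were lower and 17.5% higher. In all 4 members the treated and untreated libraries did not overlap, against 46.1% of tested genes. At 40 mM glutamine COL1A2 and VIM fell and FN1 rose, while ZEB1 did not pass, so that 3 of 4 members passed against 30.3% of tested genes (16.2% lower and 14.1% higher). Of the genes called at 40 mM 46.6% were higher, and 62.9% were when RPM was rescaled to a sum of 1000000 in each library. The same 3 did not overlap between treated and untreated libraries, against 40.6% of tested genes.

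COL1A2 had the largest fall of the 4 members at both glutamine levels. Its log2 fold change with gemcitabine was −0.32 ± 0.030 at 2 mM (SE, adjusted p = 2.02e-10), a change of −20.0% in mean RPM, and −0.38 ± 0.030 at 40 mM (adjusted p = 3.55e-12), a change of −23.4%. For VIM it was −0.10 ± 0.026 at 2 mM (adjusted p = 0.0021) and −0.16 ± 0.026 at 40 mM (adjusted p = 7.49e-06), changes of −6.90% and −10.7% in mean RPM. The VIM call at 40 mM ended under quantile normalization, which gave −0.01 (adjusted p = 0.784). ZEB1 changed by −0.22 ± 0.056 at 2 mM (adjusted p = 0.00246), a change of −14.5% in mean RPM, and at 40 mM its difference was −0.04 ± 0.056 with a 95% interval of −0.15 to 0.08 (adjusted p = 0.653).

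FN1 was the member that rose. Its printed promoter stretch holds the cAMP response element and 3 GC boxes, and whether these bear on its response was not tested. With gemcitabine its log2 fold change was 0.46 ± 0.167 at 2 mM (SE, adjusted p = 0.0303) and 0.46 ± 0.167 at 40 mM (adjusted p = 0.0359). These values are on the log2(RPM + 1) scale, which understates the change of a gene this low: the means were 76.6% and 60.5% higher, and limma-voom on the recovered reads gave 0.87 and 0.67. The call at 2 mM ended without 2 mM replicate 2, which gave 0.29 (adjusted p = 0.214), and without replicate 1 or 2 of the 2 mM group with drug (adjusted p = 0.103 and 0.0702). The call at 40 mM ended with a pseudocount of 0.1 (adjusted p = 0.0773), under quantile normalization (0.0806), without replicate 1 or 2 of the 40 mM group with drug (0.109 and 0.0878), and without replicate 1 or 2 of the 40 mM group (0.120 and 0.0789).

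The second question was what raising glutamine to 40 mM did to these genes. Without the drug, COL1A2 and FN1 were higher at 40 mM than at 2 mM, and VIM and ZEB1 did not pass, so that 2 of 4 members passed where 17.5% of tested genes did (8.41% higher and 9.12% lower). Of those calls 48% were higher, and 61.2% with rescaled RPM. The same 2 members did not overlap between the glutamine levels, against 31.1% of tested genes. In the presence of gemcitabine, COL1A2, FN1 and ZEB1 were higher at 40 mM and VIM was lower, so that 4 of 4 passed against 21.6% of tested genes (8.62% higher and 13% lower). Of those calls 39.9% were higher, 68.2% with rescaled RPM and 50.1% under quantile normalization. None of the 4 overlapped, against 37.4% of tested genes.

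For COL1A2 the log2 fold change of 40 against 2 mM was 0.22 ± 0.030 without drug (adjusted p = 1.6e-06), a mean 16.9% higher, and 0.16 ± 0.030 with drug (adjusted p = 0.000155), a mean 11.9% higher. COL1A2 passed in all 4 comparisons of pairs of groups and under every alternative run. ZEB1 differed by 0.00 ± 0.056 without drug (adjusted p = 0.977, 95% interval −0.11 to 0.12) and by 0.18 ± 0.056 with drug (adjusted p = 0.0160), a mean 14.0% higher. The ZEB1 call with drug ended without replicate 1 or 2 of the 40 mM group with drug (adjusted p = 0.0765 and 0.0691) and without replicate 1 or 2 of the 2 mM group with drug (0.0738 and 0.0539).

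VIM differed by −0.05 ± 0.026 between the glutamine levels without drug (adjusted p = 0.244) and by −0.10 ± 0.026 with drug (adjusted p = 0.00333), a change of −7.01% in mean RPM. The VIM difference with drug depended on the normalization: rescaling changed its size, and only quantile normalization changed its sign. It was −0.05 with RPM rescaled to a sum of 1000000 in each library (adjusted p = 0.142) and 0.14, the opposite sign, under quantile normalization (adjusted p = 0.000551). The call also ended without a mean-variance trend (adjusted p = 0.061). The scaling factors were 1.026 to 1.029 in the 40 mM libraries with drug and 0.988 to 0.991 in the 2 mM libraries with drug. By rank, VIM stood 12th or 13th from the top in the 40 mM libraries with drug and 15th in the 2 mM libraries with drug.

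FN1 was 79.9% higher at 40 mM without drug and 63.4% higher with drug, with log2 fold changes of 0.47 ± 0.167 in both (adjusted p = 0.0444 and 0.0403). Limma-voom on reads gave 0.92 and 0.72. Without drug, the call ended when only the compared groups were fitted (adjusted p = 0.0897) and held in 4 of 12 fits that left out 1 library. It ended without 2 mM replicate 2, which gave 0.30 (adjusted p = 0.269), without 2 mM replicate 3 (0.0631), without 40 mM replicate 2 or 3 (0.0754 and 0.162), without replicate 2 of the 40 mM group with drug (0.0518), and without replicate 1, 2 or 3 of the 2 mM group with drug (0.0504, 0.0534 and 0.0519). With drug, it ended with a pseudocount of 0.1 (adjusted p = 0.085), under quantile normalization (0.0944) and without any 1 of the 6 libraries compared (0.0505 to 0.134).

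**Figure D2:**
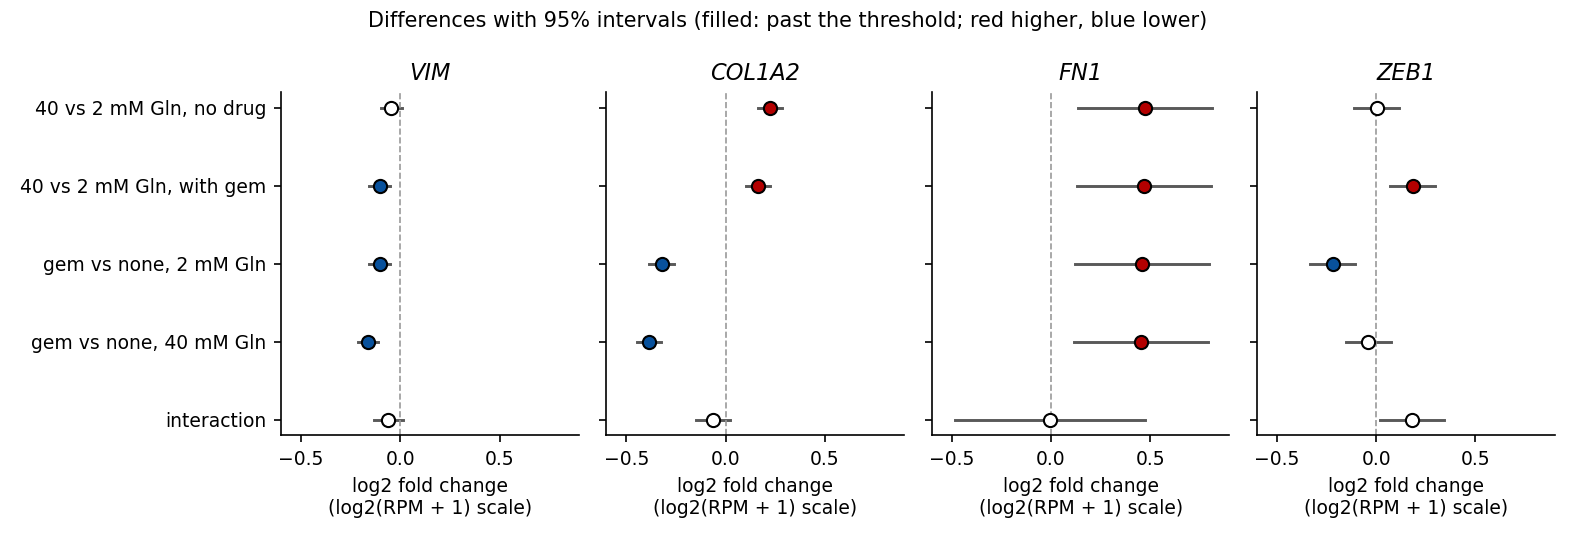
Log2 fold change of each member with its 95% interval in the 5 comparisons (log2(RPM + 1) scale), filled where the adjusted p was under 0.05, red for higher and blue for lower. COL1A2 is filled in every pairwise comparison, from −0.38 to 0.22, and the interaction, in which the response at 2 mM is subtracted from that at 40 mM, is open for all 4 members.

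Whether the drug response differed between the glutamine levels was tested with the interaction, the response at 40 mM minus that at 2 mM. None of the 4 members passed with limma (1 had an unadjusted p under 0.05) or with limma-voom (0 passed and 2 had an unadjusted p under 0.05), against 2.2% of tested genes with limma (0.727% with a higher and 1.47% with a lower response at 40 mM). The higher share of those calls was 33.1%, against 58.9% with rescaled RPM and 54.7% under quantile normalization. ZEB1, which passed at 2 mM and not at 40 mM, had a difference in response of 0.18 ± 0.079 (unadjusted p = 0.0291, adjusted p = 0.260, 95% interval 0.02 to 0.34). The difference was −0.06 ± 0.037 for VIM (95% interval −0.13 to 0.01, adjusted p = 0.450) and −0.06 ± 0.043 for COL1A2 (−0.15 to 0.02, adjusted p = 0.513). For FN1 it was −0.01 ± 0.236 with an interval of −0.48 to 0.47 (adjusted p = 0.995), wide enough to hold differences as large as its own response.

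Genes near these members in function were read from lists. Among 35 tested genes for other mesenchymal and matrix proteins, 8 rose and 10 fell with gemcitabine at 2 mM, and 7 rose and 10 fell at 40 mM. These are 51.4% and 48.6% of the list, against 34.6% and 30.3% of all tested genes. Leaving out 1 library gave 13 to 19 genes of the list at 2 mM and 14 to 19 at 40 mM. The other alternatives gave 12 to 20 and 14 to 18. The median log2 fold change of the list was −0.0088 and −0.05, against −0.0011 and −0.0054 over all tested genes. COL5A2, a chain of type V collagen that co-assembles with type I collagen, fell together with COL1A2: it averaged 687 ± 3.82 RPM with drug and 869 ± 12.8 RPM without at 2 mM (log2 fold change −0.34 ± 0.026, adjusted p = 2.11e-12), and 653 ± 4.82 and 846 ± 18.7 RPM at 40 mM (−0.37 ± 0.026, adjusted p = 2.06e-13). TIMP2, an inhibitor of matrix metalloproteinases, also fell (−0.23 at 2 mM and −0.24 at 40 mM, adjusted p = 2.31e-08 and 1.72e-08). S100A4, a calcium-binding protein often used as a fibroblast and transition marker, fell at 40 mM (−0.43 ± 0.049, adjusted p = 1.49e-08). LAMB1, a laminin chain of basement membranes, rose at 2 mM, as FN1 did, with 19.4 ± 0.188 RPM with drug against 11.9 ± 0.941 RPM without (0.67 ± 0.091, adjusted p = 4.22e-07). S100A4 and LAMB1 are given at the level where they were among the smallest adjusted p of the list, and neither passed the interaction.

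Raising glutamine moved the same list to both sides. Without drug 7 of the 35 genes were higher and 8 lower at 40 mM, and with drug 5 were higher and 8 lower. These are 42.9% and 37.1% of the list. Among all tested genes 17.5% passed without drug (8.41% higher and 9.12% lower) and 21.6% with drug (8.62% higher and 13% lower). The list medians were −0.04 and −0.07, against 0.0016 and −0.0015 over all tested genes. PLOD1, a collagen lysyl hydroxylase, was higher without drug (0.23 ± 0.040, adjusted p = 0.000114), while COL6A3, a type VI collagen chain (−0.23 ± 0.035, adjusted p = 9.23e-06), and MYL9, a myosin light chain (−0.26 ± 0.047, adjusted p = 0.000144), were lower. COL6A3 was also lower with drug (−0.21 ± 0.035, adjusted p = 3.23e-05). In the presence of drug the hyaluronan receptor CD44 averaged 1611 ± 18.9 RPM at 40 mM and 1902 ± 18.2 RPM at 2 mM (−0.24 ± 0.025, adjusted p = 1.51e-08), and galectin-1 (LGALS1) was lower by −0.22 ± 0.029. ITGAV, the integrin αv subunit that binds fibronectin, was higher, at 84.2 ± 0.342 RPM against 69.1 ± 1.46 RPM (0.28 ± 0.040, adjusted p = 2.95e-06). Genes were named by smallest adjusted p within each comparison, and of this list only CD44 passed the interaction. With drug the count of 13 was 8 without a mean-variance trend, 7 without replicate 2 of the 2 mM group with drug or replicate 3 of the 40 mM group with drug, and 8 without replicate 3 of the 2 mM group with drug.

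**Figure D3:**
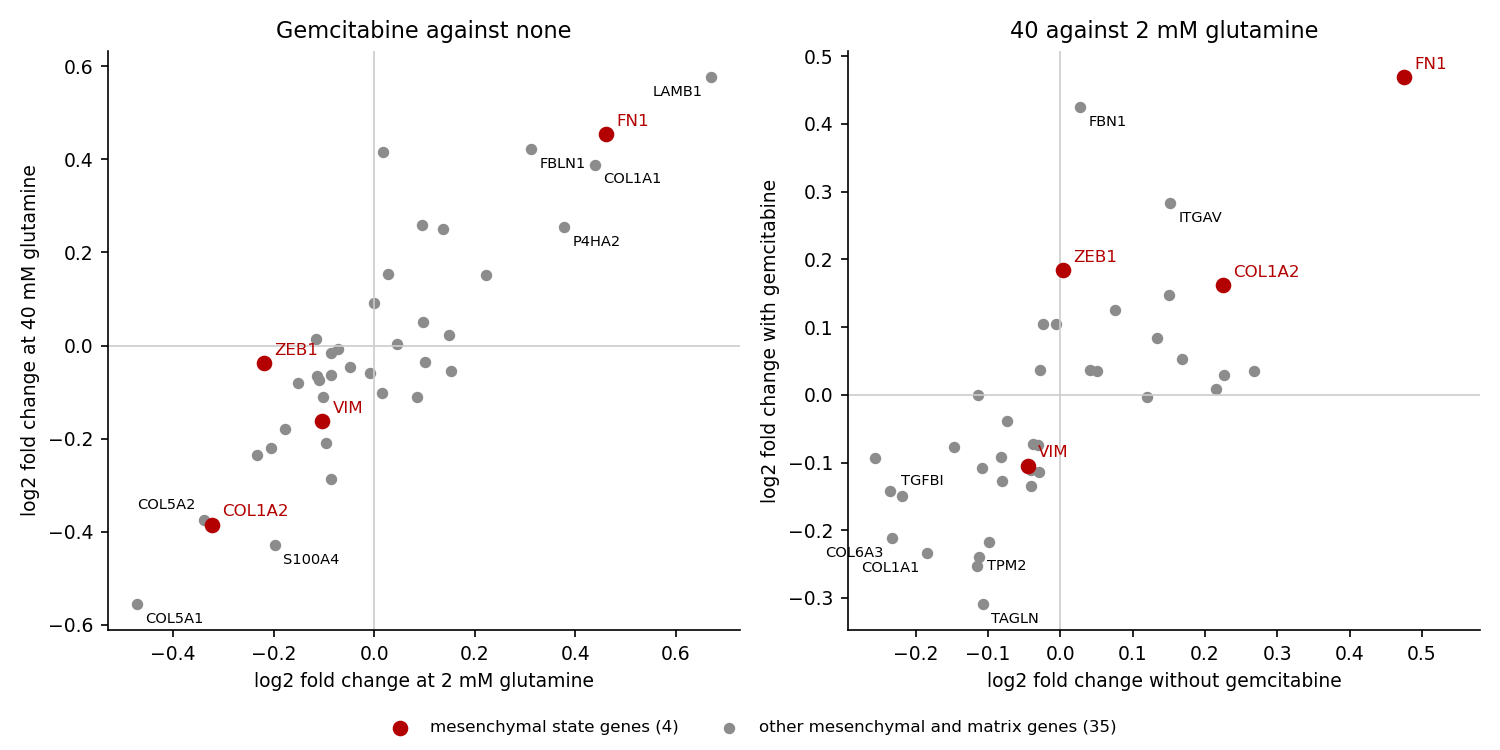
Log2 fold changes of the 4 members (red) and 35 other tested mesenchymal and matrix genes (grey): the drug response at 40 mM against that at 2 mM glutamine (left), and the glutamine response with against without gemcitabine (right); the 7 grey genes farthest from 0 are named. COL1A2 lies beside COL5A2 at the lower left of the drug panel, and FN1 lies near LAMB1 at its upper right.

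Of 12 other tested transcription factors of the transition, including SNAI1, SOX4, SOX9 and FOXC1, 0 were higher and 1 was lower with gemcitabine at each glutamine level, which is 8.33% of the list, against 34.6% of all tested genes at 2 mM and 30.3% at 40 mM. At 40 against 2 mM 0 were higher and 2 lower both without and with drug, and this 16.7% of the list lies near the 17.5% and 21.6% of all tested genes. SOX9 is counted both in this list and among the pancreatic epithelial markers. The gene that fell with the drug was TCF3, which encodes the E proteins E12 and E47 (−0.12 ± 0.031 at 2 mM and −0.14 ± 0.031 at 40 mM, adjusted p = 0.00184 and 0.000713). ETS1 was lower at 40 mM glutamine, at 116 ± 2.52 against 130.5 ± 2.88 RPM without drug (−0.17 ± 0.037, adjusted p = 0.000877) and 114 ± 1.12 against 129 ± 4.37 RPM with drug (−0.18 ± 0.037, adjusted p = 0.000439). The count of 1 with gemcitabine at 2 mM was 2 without replicate 1 of the 2 mM group with drug, 40 mM replicate 2 or replicate 2 of the 40 mM group with drug, and the count of 2 between glutamine levels without drug was 1 without 40 mM replicate 2. SNAI1 stood at 5.74 ± 0.298 RPM at 40 mM with drug, 5.23 ± 0.727 at 40 mM, 6.001 ± 0.214 at 2 mM with drug and 6.28 ± 1.72 at 2 mM, and passed in no comparison. Among 9 corepressors and partners of ZEB1, 3 rose and 1 fell with gemcitabine at 2 mM and 2 rose and 2 fell at 40 mM, where the count of 4 was 2 without 40 mM replicate 2. The methyltransferase EZH2 rose at both levels (0.33 ± 0.049 and 0.21 ± 0.049, adjusted p = 2.21e-06 and 0.000836).

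Several transcription factors that hold the epithelial state, and in other settings act against the ZEB and SNAI factors, rose with the drug. Of 7 tested, 3 rose and 0 fell at 2 mM, and 4 rose and 0 fell at 40 mM, with list medians of 0.04 and 0.30, where 17.5% and 14.1% of all tested genes rose. The count at 40 mM was 2 under the stricter filter, without 40 mM replicate 1 and without replicate 3 of the 40 mM group with drug. EHF, an ETS factor of epithelia, averaged 171 ± 2.05 RPM with drug and 130 ± 1.92 RPM without at 2 mM (0.40 ± 0.034, adjusted p = 3.44e-11), and 189 ± 7.32 against 153 ± 2.86 RPM at 40 mM (0.30 ± 0.034, adjusted p = 1.49e-08). KLF4 rose by 0.46 ± 0.071 and 0.64 ± 0.071 (adjusted p = 3.97e-06 and 1.02e-08). The keratins were divided. KRT8 and KRT18 rose at both glutamine levels, while KRT19 fell at 40 mM, at 202 ± 8.22 RPM with drug against 231 ± 8.31 RPM without (−0.19 ± 0.035, adjusted p = 6.9e-05), and did not pass at 2 mM (−0.05, adjusted p = 0.285). KRT8 averaged 2318 ± 40.3 RPM with drug and 1682 ± 45.3 RPM without at 2 mM (0.46 ± 0.026, adjusted p = 5.28e-16), and 1699 ± 4.29 against 1362 ± 8.36 RPM at 40 mM (0.32 ± 0.026, adjusted p = 6.29e-12). At 40 against 2 mM glutamine KRT8 was lower (−0.30 without and −0.45 with drug, adjusted p = 1.3e-10 and 2.83e-14). Of 13 tested epithelial junction and surface genes, 3 were higher and 1 lower in treated cells at 2 mM, and 2 were higher and 1 lower at 40 mM. This is 30.8% and 23.1% of the list, against 34.6% and 30.3% of all tested genes. The count of 4 at 2 mM was 2 without 2 mM replicate 1 or without replicate 2 or 3 of the 2 mM group with drug.

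Transforming growth factor beta is the classical inducer of the transition and of COL1A2, FN1 and ZEB1. Of 12 tested ligands, receptors and SMADs, 4 rose and 3 fell with gemcitabine at 2 mM, and 2 rose and 2 fell at 40 mM, against 34.6% and 30.3% of all tested genes in either direction. The count of 7 at 2 mM was 4 without 2 mM replicate 1, and the count of 4 at 40 mM was 2 without 40 mM replicate 2. The ligand TGFB1 averaged 53.1 ± 3.62 RPM with drug and 38.8 ± 1.80 RPM without at 2 mM (0.44 ± 0.057, adjusted p = 2.01e-07), and 51.8 ± 2.48 against 35.8 ± 1.51 RPM at 40 mM (0.52 ± 0.057, adjusted p = 7e-09). The coreceptor TGFBR3 fell, at 45.6 ± 3.44 against 69.7 ± 4.03 RPM at 2 mM (−0.60 ± 0.053, adjusted p = 4.87e-11) and 45.7 ± 0.752 against 73.1 ± 2.91 RPM at 40 mM (−0.66 ± 0.053, adjusted p = 5.11e-12). Glutamine at 40 mM without drug went with more TGFBR1, a signalling receptor (0.34 ± 0.078, adjusted p = 0.00209), and less of the coreceptor ENG (−0.27 ± 0.047, adjusted p = 0.000108), and both passed in the same direction with drug (0.28 and −0.26).

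The collagen genes, gathered after their values had been seen, did not follow COL1A2 as a family. Of 19 tested collagen genes, COL1A2 among them, 3 rose and 6 fell with gemcitabine at 2 mM, and 3 rose and 5 fell at 40 mM. Over all tested genes 17.5% rose and 17.1% fell at 2 mM, and 14.1% rose and 16.2% fell at 40 mM. The fibrillar collagen genes were divided. COL1A2, COL5A1 and COL5A2 fell at both glutamine levels, COL5A1 with a log2 fold change of −0.47 ± 0.117 at 2 mM (adjusted p = 0.0019) and −0.56 ± 0.117 at 40 mM (adjusted p = 0.000369). COL27A1, also fibrillar, rose at both, at 24.3 ± 2.06 against 19.3 ± 4.02 RPM at 2 mM (0.34 ± 0.102, adjusted p = 0.00948) and 23.3 ± 1.85 against 14.7 ± 1.44 RPM at 40 mM (0.64 ± 0.102, adjusted p = 7.98e-06). Its call at 2 mM ended without 2 mM replicate 2, which gave 0.17 (adjusted p = 0.175), without replicate 2 of the 2 mM group with drug (0.0571) and without a mean-variance trend (0.0855). COL1A1 rose at 2 mM (0.44, adjusted p = 0.0485), and COL3A1 and COL5A3 passed at neither level. COL17A1, a transmembrane collagen of the hemidesmosomes that anchor epithelial cells, rose, at 159 ± 5.11 against 78.6 ± 1.85 RPM at 2 mM (1.01 ± 0.040, adjusted p = 3.78e-20) and 138 ± 3.46 against 84.0 ± 3.77 RPM at 40 mM (0.71 ± 0.040, adjusted p = 6.65e-16). COL1A1, whose chain normally pairs with that of COL1A2 in type I collagen, was almost silent. It stood at 0.111, 0.0620, 0.148 and 0.0828 RPM per kb at 40 mM with drug, 40 mM, 2 mM with drug and 2 mM, where COL1A2 stood at 60.8, 79.3, 54.3 and 67.9.

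**Figure D4:**
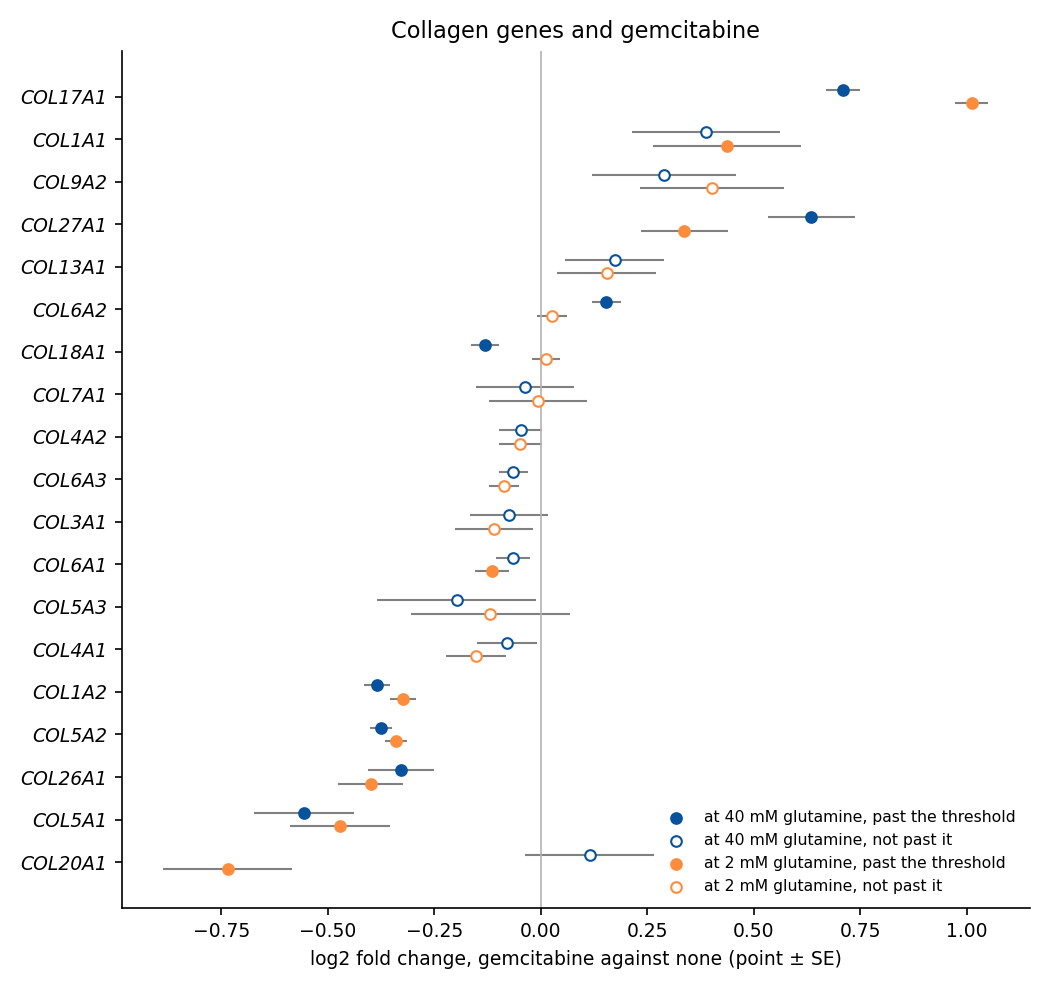
Log2 fold change with gemcitabine (± SE) of the 19 tested collagen genes at 40 mM (blue) and 2 mM glutamine (orange), filled where the adjusted p was under 0.05. COL17A1 is at the top with 0.71 and 1.01, and COL1A2 sits with COL5A2, COL26A1 and COL5A1 below 0 at both levels.

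The remaining lists were also compared at 40 against 2 mM glutamine. Epithelial junction and surface genes had 1 of 13 higher and 4 lower without drug, and 0 higher and 6 lower with drug. This is 38.5% and 46.2% of the list. Among all tested genes 17.5% passed without drug (8.41% higher and 9.12% lower) and 21.6% with drug (8.62% higher and 13% lower). The count of 6 was 3 without replicate 1 or 3 of the 2 mM group with drug or replicate 2 of the 40 mM group with drug. Factors of the epithelial state had 1 of 7 higher and 2 lower without drug, and 1 higher and 0 lower with drug, and EHF was the gene higher in both (0.23 ± 0.034 and 0.14 ± 0.034, adjusted p = 7.45e-06 and 0.0035). The 2 lower were ELF3 (−0.40 ± 0.109, adjusted p = 0.00871) and KLF4 (−0.25 ± 0.071, adjusted p = 0.0112). The ELF3 call ended without a mean-variance trend (0.0698) and without replicate 3 of the 2 mM or 40 mM group (0.0587 and 0.111). The KLF4 call ended without replicate 2 of the 2 mM or 40 mM group (0.06055 and 0.0787). The ZEB1 corepressors had 2 of 9 higher and 0 lower without drug, and 1 higher and 2 lower with drug, and the first count was 0 when only the compared groups were fitted and without 2 mM replicate 2 or 3 or 40 mM replicate 3. The TGF-beta list had 1 of 12 higher and 1 lower in each, which are TGFBR1 and ENG. That is 16.7% of the list in each, near the share of all tested genes. The ZEB1 corepressor list stood at 22.2% without and 33.3% with drug, and the factors of the epithelial state at 42.9% and 14.3%. Of the 4 pancreatic epithelial markers, 0 were higher and 3 lower (KRT8, KRT18 and KRT19) both without and with drug. With gemcitabine 2 of them rose and 0 fell at 2 mM, and 2 rose (KRT8 and KRT18) and 1 fell (KRT19) at 40 mM. Of the 3 fibroblast and stellate markers none passed between glutamine levels. With the drug COL1A1 rose at 2 mM (0.44 ± 0.174, adjusted p = 0.0485) and smooth muscle actin, ACTA2, at 40 mM (0.51 ± 0.152, adjusted p = 0.00905). The COL1A1 call held in 5 of 12 fits that left out 1 library and ended without replicate 1 or 3 of the 2 mM group, any replicate of the 2 mM group with drug, or replicate 2 or 3 of the 40 mM group with drug (adjusted p = 0.0516 to 0.163), with a pseudocount of 0.1 (0.0641) and under robust moderation (0.0543). The ACTA2 call ended without 40 mM replicate 3 (0.36, adjusted p = 0.0898).

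Antisense genes lie beside 2 members, and the sources used here do not say how strand was counted. Their reads and those of the partner can therefore not be fully told apart. VIM-AS1 had 30 to 100 reads per library, a small number beside the reads of VIM. It averaged 2.83 ± 0.381 RPM with drug and 1.39 ± 0.131 RPM without at 40 mM, and rose (0.68 ± 0.148, adjusted p = 0.000557) where VIM fell. At 2 mM it averaged 3.07 ± 0.271 RPM with drug and 2.17 ± 0.379 RPM without, which did not pass (0.37 ± 0.148, adjusted p = 0.0533). The interaction of VIM-AS1 did not pass (0.31 ± 0.209, adjusted p = 0.503). Its difference between 40 and 2 mM without drug did not pass either (−0.40 ± 0.148, adjusted p = 0.0574), though those libraries did not overlap. ZEB1-AS1 averaged 4.78 to 5.35 RPM over the 4 groups and passed in no comparison.

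The genes whose pattern over the 12 libraries was most like that of each member were taken among 6394 or 6395 genes at or above the median level, by Pearson's r of the log2 values. Since the libraries fall into 4 clusters, these values describe shared group differences only. VIM ran closest to the translation genes EIF3M, RPL7 and MRPS27 (r = 0.98, 0.98 and 0.97), of which RPL7 has near-identical copies that could share its reads. COL1A2 ran closest to ADI1, BCKDHB and STAT3 (0.99, 0.98 and 0.98), FN1 to DENND4B, NDFIP2 and TTF2 (0.95, 0.94 and 0.92), and ZEB1 to XPR1, CDC42BPA and HMBOX1 (0.92, 0.91 and 0.91). No gene was shared between these lists.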

How the data were processed

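RNA-seq of MIA PaCa-2 cells was deposited as 1 table of log2 values for 15090 gene symbols, whose columns carry the library names of the sample titles. From the values, the deposited log2 numbers are log2(RPM + 1), and 100% of values gave whole reads within a tolerance of 0.05 read. No source used here names the aligner, counting program, strand setting or genome build.

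Testing was limited to the 12789 genes that reached 1 RPM in 3 or more of the 12 libraries, and 2301 stayed untested. Limma 3.58.1 (R 4.3.3) was fitted to the log2 values deposited by the authors, with a mean for each of the 4 groups, 1 spread shared by the 12 libraries, empirical Bayes moderation, a mean-variance trend, two-sided tests, Benjamini-Hochberg adjustment over all tested genes and a threshold of 0.05. The procedure was also run on simulated reads that gave every gene the same dispersion, which real genes need not share, and no result here rests on that run. Alternatives were a pseudocount of 0.1, RPM rescaled to 1000000 per library, quantile normalization, limma-voom on recovered reads, no filter, a filter at 5 RPM, only the compared groups, robust moderation, no trend, a replicate block and leaving out each library. A chi-square of reads over its degrees of freedom between 2.42 and 5.87 parted every replicate pair. Named genes are all members, up to 3 genes per list and comparison by smallest adjusted p, and for each member the 3 genes with the most similar pattern. Collagens, antisense genes, COL3A1 and SNAI1 were added after their values were seen. 1 marker of the cell type list is not reported here. Members and lists were chosen with earlier results of these data known. Promoter windows came from RefSeq and exon lengths from GENCODE v29.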

Additional observations from a re-analysis of the deposited data

Results flagged for a closer look

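In 5 genes near the members the drug response differed between the glutamine levels by the interaction test (limma, adjusted over 12789 genes), in which the response at 2 mM is subtracted from that at 40 mM. Over all tested genes 2.2% passed. The 5 are 1 of 35 mesenchymal and matrix genes, 1 of 13 junction genes, 1 of 4 pancreatic epithelial markers, and COL17A1 and COL20A1 among 19 collagens. The collagens were gathered after their values had been seen. The tight junction gene CLDN4 differed by 0.40 (adjusted p = 0.000523): its drug response passed upward at 40 mM (0.26) and downward at 2 mM (−0.14). The downward call ended without replicate 1 of the 2 mM group and without replicate 2 or 3 of the 2 mM group with drug (adjusted p = 0.108, 0.0995 and 0.0525). The call of the difference ended without a mean-variance trend (adjusted p = 0.118). Without drug CLDN4 averaged 93.4 RPM at 40 mM and 155 RPM at 2 mM (−0.73 ± 0.048, adjusted p = 7.12e-13). With drug it averaged 112 RPM at 40 mM and 141 RPM at 2 mM (−0.33 ± 0.048, adjusted p = 4.82e-06).

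COL17A1 rose less at 40 mM than at 2 mM, by −0.30 (adjusted p = 0.00194), a call that ended without a trend (0.104). COL20A1, with group means of 1.31 to 2.85 RPM, differed by 0.85 (adjusted p = 0.0261), a call that held in 7 of 12 fits that left out 1 library and ended without replicate 1 of the 2 mM group, replicate 1 or 3 of the 2 mM group with drug, replicate 1 of the 40 mM group or replicate 2 of the 40 mM group with drug (adjusted p = 0.0503 to 0.0920), under quantile normalization (0.0590) and without a trend (0.0874).

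KRT8 rose less at 40 mM, by −0.14 (adjusted p = 0.0273), and that call held in 5 of 12 such fits. It ended without replicate 1 or 3 of the 2 mM group, replicate 1 or 2 of the 2 mM group with drug, replicate 3 of the 40 mM group or replicate 1 or 2 of the 40 mM group with drug (adjusted p = 0.0570 to 0.105), under rescaled RPM and quantile normalization (0.105 and 0.466) and without a trend (0.229). CD44 differed by −0.13 (adjusted p = 0.0488), a call that ended in most alternatives, the replicate block among them (adjusted p = 0.0538), and held, among the fits without 1 library, only without replicate 1 of the 40 mM group.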

How the results depend on the processing

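COL1A2 kept the direction and call of its 4 pairwise differences in every alternative. Under quantile normalization VIM at 40 against 2 mM had the opposite sign without drug (0.0234) and with drug (0.14), as did ZEB1 without drug (−0.0010), COL5A2 with drug (0.0164), and the interactions of VIM (0.11) and COL1A2 (0.0265). With rescaled RPM the sign turned for ZEB1 with gemcitabine at 40 mM (0.0023) and for the FN1 interaction (0.0235). Leaving out 1 library at a time gave −0.0364 to 0.0478 for ZEB1 at 40 against 2 mM without drug, −0.0612 to 0.0024 for ZEB1 with gemcitabine at 40 mM, and −0.15 to 0.17 for the FN1 interaction. None of these had passed except VIM and COL5A2 with drug, and the cause was not tested.

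The 2 members that passed at 40 against 2 mM without drug became 1 under the filter at 5 RPM, which does not test FN1, and 1 when only the compared groups were fitted. Of the 3 that passed with gemcitabine at 40 mM, 1 did under quantile normalization. Leaving out 1 library gave 1 to 2 and 2 to 4 members at 40 against 2 mM without and with drug, 3 to 4 and 2 to 3 with gemcitabine at 2 and 40 mM, and 0 in the interaction. Over all genes, the 281 interaction calls became 0 without a mean-variance trend (limma, 1700 at an unadjusted p under 0.05; limma-voom called 298), and 155 to 366 when 1 library was left out. Those ranges were 1685 to 2283, 2079 to 2929, 3539 to 4586 and 3241 to 3930 genes in the other comparisons, in the order above.

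Same-numbered replicates did not deviate together (correlations −0.0768 to 0.0480), so no pairing by replicate number was detected. A shared passage or day with a small effect could go unseen in this check. With the replicate block, 2292, 2786, 4424, 3893 and 306 genes passed in the 5 comparisons, and 2, 4, 4, 3 and 0 members, as without it.

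FN1 is limited by depth, at 10 to 68 reads per library. Its calls lie near the threshold, and its fold change depends on the pseudocount.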
